A study of Mus musculus with 12 samples.

Results

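The zinc transporters of the mouse liver were described across livers of animals given water or silver nanoparticles. The 10 genes Slc30a1, Slc30a5, Slc30a7, Slc30a10, Slc39a1, Slc39a4, Slc39a5, Slc39a7, Slc39a8 and Slc39a14 were taken by symbol from the platform's probe-gene table. They were found through probe sets that name 1 gene only, and all 10 were measured, among 30142 genes with such a probe set. Each member had 1 probe set. Of the 20020 genes tested, those with a mean log2 signal above 3.93, 9 were members. Slc39a5 lay below that limit, with a mean of 3.83 and values of 3.74 to 4.01 over the 12 livers.

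Total RNA of 12 livers was measured on whole-transcript arrays, 1 array for each mouse, as log2 signal. The 3 groups were control mice given water, mice given citrate-coated silver particles (cit-AgNP) and mice given silver particles coated with polyvinylpyrrolidone (PVP-AgNP). Each group held 4 mice, 2 females and 2 males, all 3 months old and of strain C57BL/6J -Oca2p-un/J, so that the pink-eyed unstable allele of Oca2 was shared by controls and treated animals. The particles measured 20 nm and were given by oral gavage at 4 mg silver per kg daily for 7 days, with livers taken 24 h after the last dose. The labels do not say whether mice shared cages or litters. Citrate is a small charged coating and PVP an uncharged polymer.

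Zinc moves through membranes by means of 2 transporter families. SLC30 proteins (ZnT) carry zinc out of the cytosol, across the plasma membrane or into organelles, and SLC39 proteins (ZIP) carry it into the cytosol. Some members carry other metals: SLC39A14 and SLC39A8 also take up manganese, and SLC30A10 exports manganese from hepatocytes into bile. In the liver, SLC39A14 is known as the importer that is induced by interleukin-6 during inflammation, and SLC30A1, with the metallothioneins, is a classic target of the zinc sensor MTF1. Metallothioneins bind zinc and also silver.

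Array quality was read from how well exon control probe sets separate from intron ones, as an area under the curve. This area was 0.824 ± 0.016 in controls, 0.820 ± 0.00624 with citrate and 0.802 ± 0.0198 with PVP (mean ± SD, n = 4 each). PVP replicate 1 had the lowest area, 0.778, and PVP replicate 4 the next lowest, 0.794. In PVP replicate 1, 5 of the 10 members had their lowest signal of the 12 livers, where 26.0% of all tested genes had theirs. The 4 hepatocyte markers measured averaged 19.93 on every array, at the top of the scale (19.93), so a change in them could not be seen. Kupffer cell markers, 6 of 6 above the limit, averaged 7.53 to 8.47 in controls, 7.82 to 9.01 with citrate and 7.81 to 9.81 with PVP. Stellate cell markers, 4 of 4, averaged 8.37 to 9.14, 8.17 to 8.90 and 7.70 to 8.60 in the same order. PVP against control, 0 of these 4 passed in limma, where 0.04% of all genes did. All 4 were below 0 (median -0.64), and 2 were lower at an unadjusted p under 0.05, where 12.2% of all genes were. Cholangiocyte markers (4) and lymphocyte markers (3) averaged 3.90 to 5.01 on all arrays. Sinusoidal endothelial markers, 5 of 5, averaged 8.35 to 8.82 in controls, 8.59 to 8.85 with citrate and 8.09 to 8.61 with PVP. PVP against control, 4 of these 5 were below 0 and 1 above, and 1 was lower at an unadjusted p under 0.05. The Kupffer cell markers were above 0 in 6 of 6 (median 0.51) in that comparison. Of these, 1 was higher at an unadjusted p under 0.05, where 8.08% of all genes were, and 0 passed in limma. In whole liver, a change in the number of cells of a type and a change in RNA per cell cannot be told apart.

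The promoter of Slc30a10 is shown because this exporter had the largest difference of the members with citrate. The gene lies at chr1:185454848-185468762. The sequence is the 250 bases before the RefSeq start (GRCm38.p6, chr1:185454598-185454847, plus strand). Capitals mark matches to the core of the metal response element bound by MTF1.

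Slc30a10 promoter: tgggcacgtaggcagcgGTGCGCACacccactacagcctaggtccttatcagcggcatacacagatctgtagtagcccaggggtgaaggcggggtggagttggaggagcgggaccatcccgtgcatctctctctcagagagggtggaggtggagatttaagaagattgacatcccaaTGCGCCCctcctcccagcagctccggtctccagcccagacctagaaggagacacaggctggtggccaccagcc

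The core was searched on both strands as TGCACNC or TGCGCNC. The first stretch in capitals holds a match on each strand, which overlap, and the other lies 73 to 67 bases before the start. RefSeq promoter windows were found for 8 of the 10 members, and Slc39a4 and Slc39a14 were not among them. A core was present in 5 of these 8 genes, Slc30a1, Slc30a5, Slc30a10, Slc39a5 and Slc39a8. It lay in 5 of the 10 windows of the 8 genes, against 21.4% of all 32851 windows of the same length. The next 4 lines show 30 bases around matches in Slc30a1 (chr1:191906726-191906755), in Slc39a8 at the second of 2 annotated starts (chr3:135825626-135825655), and in Slc30a5 at 2 places (chr13:100833458-100833487 and chr13:100833432-100833461, minus strand). They are the sites of the other exporter of the plasma membrane, of an importer with 3 PVP livers below all controls, and of a Golgi transporter described by sex further on. Each of these matches lies inside the annotated span of its gene, not before it. Of the 250 bases of the window, 84 lie inside the gene for Slc30a1, 250 for Slc39a8 and 53 for Slc30a5.

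Slc30a1 metal response core: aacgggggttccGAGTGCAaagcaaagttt
Slc39a8 metal response core: cttatctctaaaGGGTGCAgggcctgatct
Slc30a5 metal response core: acgtgtccaccaGCGCGCAggcgcaggatt
Slc30a5 paired zinc element: gattggtCACTCCcccgGGAGTGagggctg

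In these 3 metal response cores the capitals read the match on the opposite strand. The zinc element was searched as CACTCC followed by GGAGTG after 0 to 50 bases, on both strands. Of the 8 members with a window, Slc30a5 alone held it, against 0.152% of all windows. These matches are letters in a sequence, and no measurement here tests whether a factor binds them.

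Neither coating gave a zinc transporter that passed the threshold. With citrate, 0 of the 9 tested members passed at a limma adjusted p under 0.05, where 0.005% of all genes did, and 1 member, Slc30a10, was lower at an unadjusted p under 0.05, where 3.82% of genes were. With PVP, 0 of 9 passed, where 0.04% of genes did, and 2 members, Slc30a10 and Slc39a8, were lower at an unadjusted p under 0.05. Over all genes 12.2% were lower by the same rule, and with so few members this count is not read as a result about them. The control and treated livers overlapped in all 9 tested members with both coatings, whereas groups did not overlap in 4.3% of genes with citrate and 7.9% with PVP. The median log2 difference of the members was -0.05 with citrate and -0.15 with PVP, beside 0.00 over all genes in each. Both comparisons use the same 4 control mice. The unadjusted count with PVP was 0 once control replicate 4 was left out. It was 1 when control replicate 1, control replicate 2, PVP replicate 1 or PVP replicate 4 was left out, and 3 without PVP replicate 2 or PVP replicate 3. It was 3 after quantile normalization. It was 1 with only the groups compared in the fit, with the area as a term, or without both arrays of lowest area. With citrate it was 0 without control replicate 2, control replicate 4 or citrate replicate 1, and 2 without PVP replicate 1. Over the 11 alternatives that left out no single array, the citrate count ran from 1 to 2 and differed in 1.

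**Figure D1:**
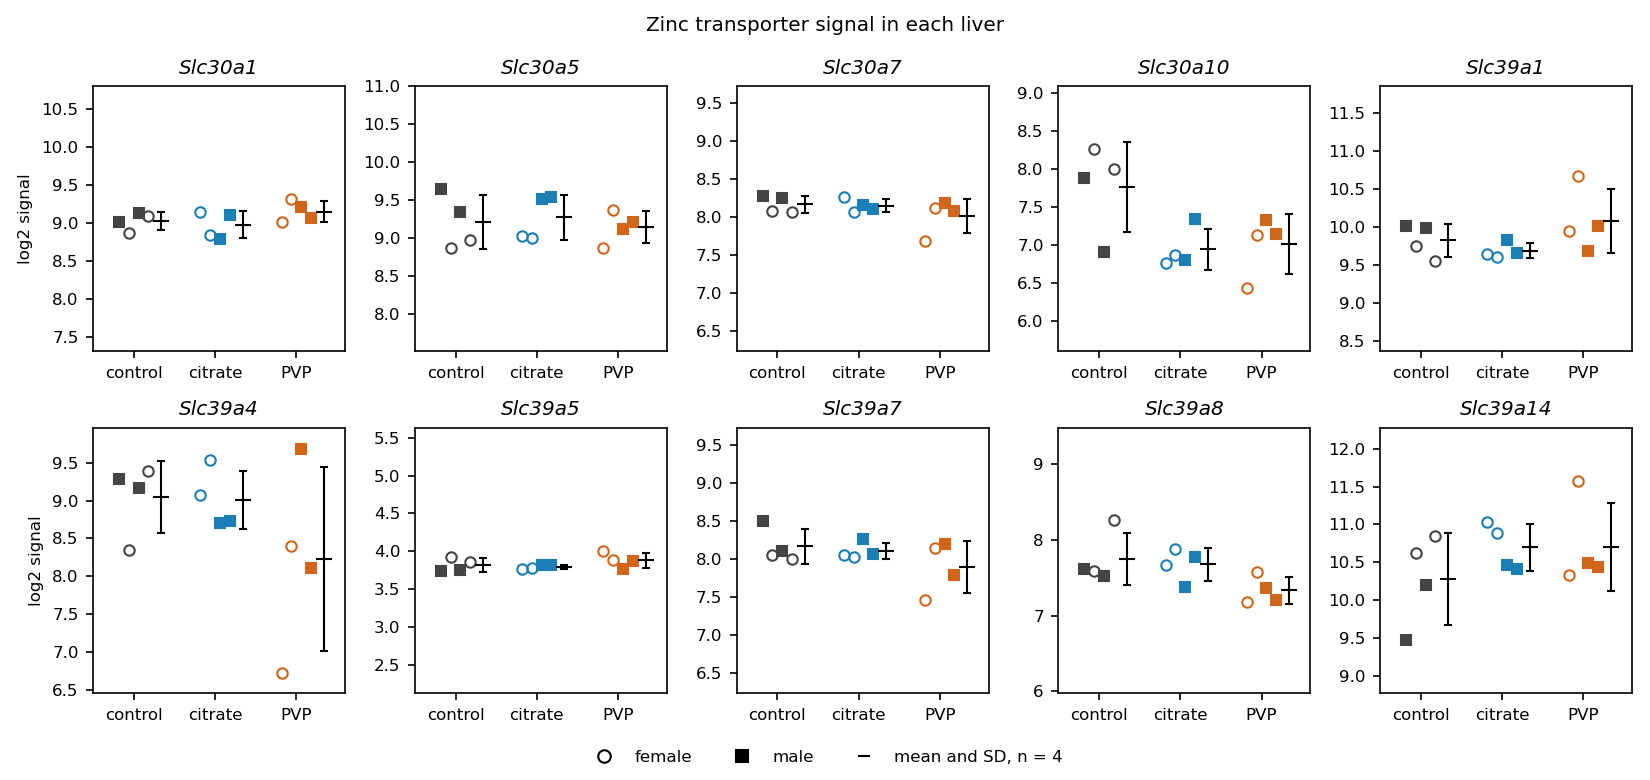
Log2 signal (vertical axis, 3.5 log2 units in every panel) of the 10 zinc transporters in the livers of control, citrate and PVP mice, with females as open circles, males as filled squares and the mean with SD of 4 mice at the right of each group. Slc30a10 is highest in 3 of the 4 control livers, Slc39a4 spreads from 6.73 to 9.68 with PVP, and Slc30a1 stays within 8.79 to 9.32.

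Among the exporters, Slc30a10 had the widest range. Its log2 signal in control replicates 1 to 4 was 7.87, 8.26, 6.91 and 8.004. In citrate replicates 1 to 4 it was 6.76, 6.87, 6.80 and 7.34, and in PVP replicates 1 to 4 it was 6.43, 7.13, 7.33 and 7.15. Of the control livers 3 lay above all 8 treated livers, and control replicate 3, a male, lay among them. The group means were 7.76 ± 0.59, 6.94 ± 0.27 and 7.01 ± 0.40 (mean ± SD, n = 4 each).

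The log2 difference of Slc30a10 was -0.82 with citrate (SE 0.30, 95% interval -1.48 to -0.17, limma adjusted p = 0.591), which is 1.77-fold lower. With PVP it was -0.75 (SE 0.30, interval -1.41 to -0.10, limma adjusted p = 0.206), or 1.69-fold lower. The coatings differed from each other by 0.07 (interval -0.59 to 0.72, limma adjusted p = 0.933). Neither difference from control passed. Without any single array the value ran from -1.14 to -0.64 with citrate and from -1.07 to -0.53 with PVP.

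Slc30a10 stood lower in the treated females than in the control females. The 2 control females had 8.26 and 8.004, the citrate females 6.76 and 6.87, and the PVP females 6.43 and 7.13. With 2 control females such an order says little, and its share over all genes was not counted. In males the controls had 7.87 and 6.91, and the 4 treated livers, from 6.80 to 7.34, overlapped them. The within-sex differences were -1.32 with citrate and -1.35 with PVP in females (SE 0.34, limma adjusted p = 0.954 and 0.25), and -0.32 and -0.15 in males (limma adjusted p = 1 and 0.923).

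The test of the difference between sexes gave -0.999 for citrate (interval -2.11 to 0.12) and -1.20 for PVP (interval -2.31 to -0.09), each with a limma adjusted p of 1. Without control replicate 3 these values were -0.515 and -0.717. At an unadjusted p under 0.05, 0 of 9 members differed between sexes in their response to citrate, where 2.44% of genes did, and 2 of 9 in their response to PVP, where 3.62% did. Those 2 were Slc30a10 and Slc39a1. At a limma adjusted p under 0.05, 0% of genes differed for either coating. The count of 2 for PVP was 0 without control replicate 2, control replicate 3, citrate replicate 1, citrate replicate 2 or PVP replicate 3. It was 1 without control replicate 1, control replicate 4, citrate replicate 3, citrate replicate 4 or PVP replicate 4. Each sex has 2 mice per group, and the lone mouse left by such a fit is assumed to vary like the others.

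Slc30a1, the zinc exporter of the plasma membrane, varied least among the tested members. Its 12 values lay between 8.79 and 9.32, a range of 0.52 that 30.4% of tested genes fell short of. The group means were 9.03 ± 0.12 in controls, 8.97 ± 0.18 with citrate and 9.15 ± 0.14 with PVP. The log2 difference was -0.05 with citrate (interval -0.33 to 0.22, limma adjusted p = 1) and 0.12 with PVP (interval -0.15 to 0.39, limma adjusted p = 0.586).

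The metallothioneins, which share the sensor MTF1 with Slc30a1, had ranges of 8.50 (Mt1) and 11.22 (Mt2), wider than in 99.9% of tested genes. Mt1 had 8.86, 16.98, 12.60 and 16.88 in control replicates 1 to 4, 15.94 to 17.37 with citrate and 13.52 to 17.35 with PVP. Mt2 had 7.56, 17.86, 11.20 and 17.90 in the same controls, 15.78 to 18.68 with citrate and 13.13 to 18.78 with PVP. The lowest values of both genes were in control replicates 1 and 3, both males, followed by PVP replicate 3, also a male. Control replicates 2 and 4, both females, lay within the range of the treated livers for both genes.

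In the control livers whose Mt2 signals lay farthest apart, replicates 1 and 4, Slc30a1 had 9.01 and 9.09. In those farthest apart for Mt1, replicates 1 and 2, Slc30a1 had 9.01 and 8.86. The differences of Mt1 were 3.00 with citrate (SE 1.17) and 2.49 with PVP (SE 1.17), with limma adjusted p-values of 0.648 and 0.262. Those of Mt2 were 3.95 and 3.49 (SE 1.42), with limma adjusted p-values of 0.591 and 0.211. Mtf1 itself lay between 6.24 and 6.92 in all livers, with differences of 0.13 (limma adjusted p = 0.952) and -0.15 (limma adjusted p = 0.396). Mt3, a metallothionein better known from brain, had -0.10 with citrate and -0.14 with PVP, and Mt4 lay below the limit. None of the 4 tested genes of zinc buffering and sensing passed, and unadjusted p-values under 0.05 counted 2 higher with citrate and 1 higher with PVP, where 2.74% and 8.08% of all genes were higher. Female against male, 2 were higher by this rule (largest difference 4.64), where 15.3% of all genes differed. The coating effect in females minus males was as low as -6.31 with citrate and -5.27 with PVP. For each coating 2 of these genes were lower in that contrast, where 2.44% and 3.62% of all genes differed, and 0 passed in limma.

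**Figure D2:**
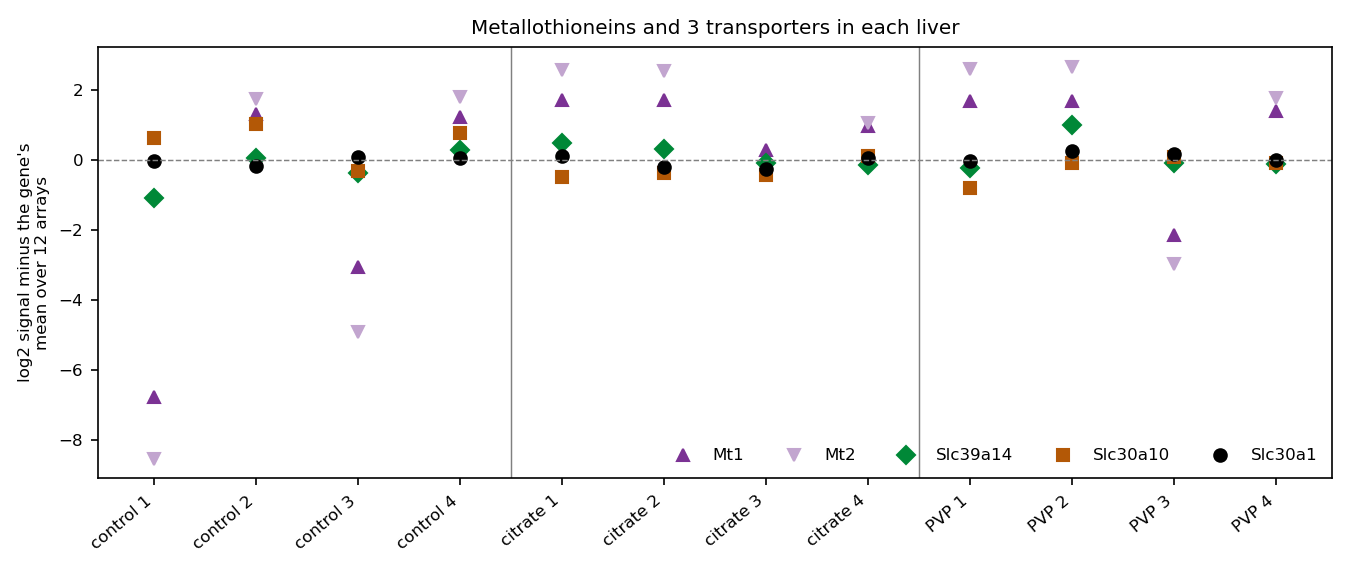
Log2 signal minus the gene's own mean over 12 arrays (vertical axis) for Mt1, Mt2, Slc39a14, Slc30a10 and Slc30a1 in each of the 12 livers (horizontal axis, group and replicate). Mt1 and Mt2 are lowest in control replicates 1 and 3, while Slc30a1 lies within 0.52 over all livers.

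The exporters of the Golgi had small differences. Slc30a5, which with SLC30A6 loads zinc into enzymes of the secretory pathway, had 9.64, 8.86, 9.34 and 8.98 in control replicates 1 to 4. It had 9.02, 9.002, 9.51 and 9.54 with citrate and 8.86, 9.36, 9.11 and 9.21 with PVP. The control and citrate males lay above the control and citrate females, and with PVP the sexes overlapped. With 2 mice per sex and group such an order says little, and its share over all genes was not counted. The difference of PVP from control in females minus that in males was 0.53 (interval -0.09 to 1.15) and did not pass in limma. The log2 differences were 0.06 with citrate and -0.07 with PVP (SE 0.15 each, limma adjusted p = 1 and 0.811). Slc30a7, another Golgi importer of zinc, lay between 7.68 and 8.28, lowest in PVP replicate 1, with differences of -0.02 with citrate and -0.15 with PVP (SE 0.11 each, limma adjusted p = 1 and 0.439).

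Slc39a14, the importer of zinc, iron and manganese, had the widest range of the importers after Slc39a4, 2.10. In control replicates 1 to 4 it had 9.47, 10.62, 10.20 and 10.85, in citrate replicates 11.03, 10.88, 10.46 and 10.41, and in PVP replicates 10.33, 11.57, 10.49 and 10.44. The highest liver was PVP replicate 2, a female, and the lowest control replicate 1, a male. The means were 10.29 ± 0.61, 10.70 ± 0.31 and 10.71 ± 0.58. The log2 difference was 0.41 with citrate (SE 0.25, interval -0.15 to 0.97, limma adjusted p = 0.892) and 0.42 with PVP (SE 0.25, interval -0.14 to 0.98, limma adjusted p = 0.354). Without control replicate 1 the PVP value was 0.24, without PVP replicate 2 it was 0.22, and without PVP replicate 1 it was 0.68. The citrate value was 0.22 without control replicate 1.

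Genes of the interleukin-6 response, of which Slc39a14 is a known target, were above 0 in 12 of 14 with citrate and 11 of 14 with PVP. Unadjusted p-values under 0.05 counted 3 higher with citrate and 7 higher with PVP, 0 lower in both, and 0 of 14 passed in limma. Over all genes 2.74% were higher by this rule with citrate and 8.08% with PVP. The median difference of the list was 0.29 with citrate and 0.43 with PVP, beside 0.00 over all genes in each. Fgb was at the top of the scale on all 12 arrays, where no difference can be seen, which leaves 13 genes. The serum amyloid gene Saa2 stood at 9.13 ± 1.21 in controls, 10.6 ± 2.43 with citrate and 15.9 ± 3.95 with PVP. Its PVP difference was 6.80 (SE 1.34, limma adjusted p = 0.0759). Lcn2, a lipocalin that withholds iron from bacteria, stood at 5.16 ± 0.94, 6.48 ± 1.89 and 9.10 ± 3.90 (PVP difference 3.94, SE 1.07, limma adjusted p = 0.128). Cebpb, a transcription factor of this response, had a citrate difference of 0.54 (SE 0.15, limma adjusted p = 0.411).

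Over the 12 livers, the genes whose signal was most like that of Slc39a14 were Sqle, an enzyme of cholesterol synthesis (Pearson r = 0.938), the neutrophil gene Retnlg (0.930), Oas1g (0.917), the neutrophil alarmin S100a8 (0.916) and Dapp1 (0.915). All 5 had their lowest signal in control replicate 1, as Slc39a14 did, where 7.06% of all tested genes had theirs. Picking genes by correlation favours a shared lowest array, so this count is not a separate result. The correlations are descriptions over 12 arrays that share group, sex and array quality. Neutrophil markers, 4 of 4 above the limit, averaged 4.70 to 7.62 in controls, 6.73 to 7.65 with citrate and 6.80 to 9.44 with PVP. PVP against control, 4 of 4 were above 0 (median 1.27) and 0 passed in limma. At an unadjusted p under 0.05, 2 were higher, where 8.08% of all genes were. The part of these markers in the Slc39a14 values was not tested.

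Slc39a8, which takes up manganese and zinc and reclaims manganese from bile, had 7.62, 7.59, 7.52 and 8.26 in control replicates 1 to 4. With citrate it had 7.67, 7.89, 7.38 and 7.77, and with PVP 7.19, 7.58, 7.37 and 7.21. PVP replicates 1, 3 and 4 lay below all controls, and PVP replicate 2 lay within them. The log2 difference with PVP was -0.41 (SE 0.16, interval -0.77 to -0.06, limma adjusted p = 0.202), or 1.33-fold lower. With citrate it was -0.07 (SE 0.16, interval -0.43 to 0.28, limma adjusted p = 1). The PVP value was -0.26 without control replicate 4, the highest liver, and -0.15 with the exon over intron area in the fit.

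Slc39a8 and Slc30a10 handle manganese as well as zinc, and their 14 tested partners in manganese and iron handling gave 0 passing genes with either coating in limma. Unadjusted p-values under 0.05 counted 0 higher and 2 lower with citrate, and 1 higher and 2 lower with PVP. The 2 lower with citrate were Ftl1 at -0.26 and Hamp2 at -0.16, the latter near the top of the scale. With so few genes the citrate count is not read as a result. Over all genes 3.82% were lower with citrate, and 8.08% were higher and 12.2% lower with PVP, so the PVP counts stood near the background. Hamp and Trf were at the top of the scale on all 12 arrays, and Hamp2 and Fth1 each had 1 value, within 0.01, on 10 of 12. In Hamp and Trf a difference cannot be seen, and in Hamp2, with values of 19.54 to 19.93, it is bounded by the scale. Fth1 repeated 16.33, below the top of the scale, and Ftl1 had 1 value, within 0.01, on 5 of 12. Why these 2 repeat was not tested. Ftl1, the ferritin light chain, stood at 16.2 ± 0.161 in controls, 16.0 ± 0.104 with citrate and 15.8 ± 0.366 with PVP (PVP difference -0.44, SE 0.11, limma adjusted p = 0.12). Tfr2, the transferrin receptor that senses iron, had a PVP difference of 0.56 (SE 0.19, limma adjusted p = 0.178). Sod2, the manganese superoxide dismutase, had -0.26 (SE 0.13, limma adjusted p = 0.28).

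Slc39a4, best known as the zinc importer of the intestine, had the widest range of all members, 2.95. It had 9.28, 8.35, 9.16 and 9.39 in control replicates 1 to 4, 9.07, 9.53, 8.70 and 8.73 with citrate, and 6.73, 8.40, 9.68 and 8.11 with PVP. The PVP group held both the lowest and the highest of the 12 livers. The log2 difference was -0.81 with PVP (SE 0.50, interval -1.93 to 0.30, limma adjusted p = 0.369) and -0.04 with citrate (interval -1.15 to 1.08, limma adjusted p = 1). Without PVP replicate 1, the array of lowest quality, the PVP value was -0.32, and with the area in the fit it was 0.13. The genes most like Slc39a4 over the 12 livers were Abca2 (Pearson r = 0.968), Wac (0.966), Eea1 (0.966), Kat2b (0.964) and Mbnl1 (0.961). All 5 also had their lowest signal in PVP replicate 1, where 26.0% of all tested genes had theirs. Having been picked by correlation, these genes were likely to share that array. Of the enterocyte markers, 1 of 4 lay above the limit, and of 3 pancreatic acinar markers measured, 1.

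Slc39a1, an importer of the plasma membrane, had 10.01, 9.75, 9.99 and 9.55 in control replicates 1 to 4. It had 9.65, 9.61, 9.83 and 9.65 with citrate and 9.94, 10.67, 9.68 and 10.02 with PVP. PVP replicate 2 was the highest liver, as for Slc39a14. The log2 difference was -0.14 with citrate (SE 0.20, limma adjusted p = 1) and 0.25 with PVP (SE 0.20, limma adjusted p = 0.475). Without PVP replicate 2 the PVP value was 0.0312, without control replicate 4 it was 0.15, and without PVP replicate 3 it was 0.40. The difference of PVP from control in females minus that in males was 0.80 (interval 0.02 to 1.59, limma adjusted p = 1), or 0.44 without PVP replicate 2.

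Slc39a7, which releases zinc from the endoplasmic reticulum into the cytosol, lay between 7.45 and 8.50, lowest in PVP replicate 1. Its differences were -0.06 with citrate and -0.27 with PVP (SE 0.16 each, limma adjusted p = 1 and 0.345). Without both arrays of lowest area the PVP value was 0.00179. Of 12 genes of endoplasmic reticulum stress, 0 passed with either coating in limma. Unadjusted p-values under 0.05 counted 0 with citrate, and 1 higher and 1 lower with PVP, where 8.08% of all genes were higher and 12.2% lower. Xbp1, a transcription factor of the unfolded protein response, had a PVP difference of -0.87 (SE 0.32, limma adjusted p = 0.19), and the sensor kinase gene Eif2ak3 had 0.30 (SE 0.11, limma adjusted p = 0.185).

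The coatings were also compared directly, at the same silver dose and time. Of the 9 tested members 0 differed between PVP and citrate at a limma adjusted p under 0.05, where 0% of genes did, and 0 at an unadjusted p under 0.05, where 14% of genes did. Groups overlapped in all 9, while they did not overlap in 7.21% of genes. The largest differences were those of Slc39a4 at -0.78 (interval -1.89 to 0.34, limma adjusted p = 0.493, -0.28 without PVP replicate 1), Slc39a1 at 0.39 (interval -0.05 to 0.84, limma adjusted p = 0.401, 0.17 without PVP replicate 2) and Slc39a8 at -0.34 (interval -0.70 to 0.01, limma adjusted p = 0.369). These intervals do not show that the coatings act alike. The unadjusted count was 2 without PVP replicate 2 or PVP replicate 3, and 1 without control replicate 2, control replicate 4 or citrate replicate 3. Over the 11 alternatives that left out no single array it ran from 0 to 2 and differed in 3.

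**Figure D3:**
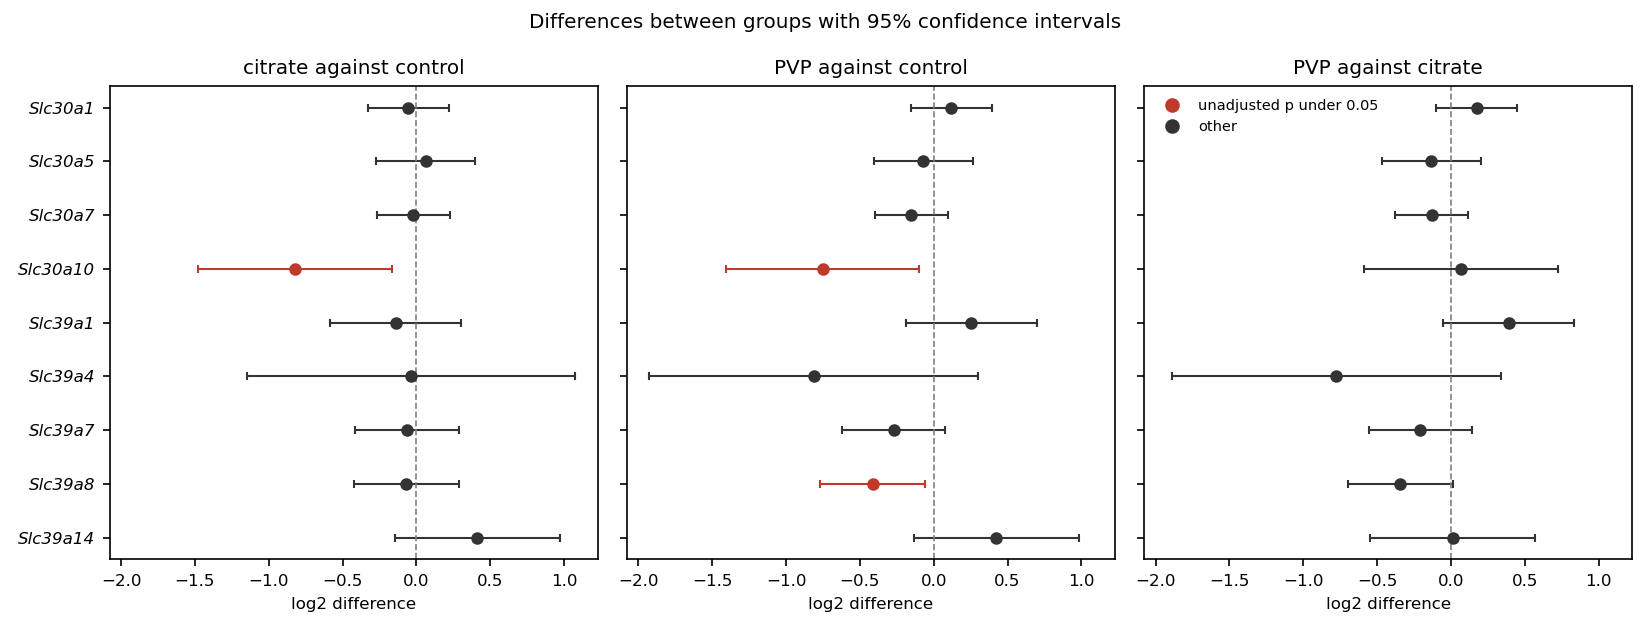
Log2 difference (horizontal axis) with its 95% confidence interval for the 9 tested zinc transporters in each comparison between groups, from the fit to 12 arrays. Points at an unadjusted p under 0.05 are red: Slc30a10 at -0.82 with citrate, and Slc30a10 at -0.75 and Slc39a8 at -0.41 with PVP.

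The further members of both families were taken as a list. Of 14 such zinc transporters, all measured, 12 were tested, and 0 passed in limma with either coating. Unadjusted p-values under 0.05 counted 0 with citrate, and 0 higher and 3 lower with PVP, where 12.2% of all genes were lower. Those 3 were Slc39a10 at -0.21 (SE 0.07, limma adjusted p = 0.179), Slc30a6, the Golgi partner of Slc30a5, at -0.31 (SE 0.11, limma adjusted p = 0.193), and Slc39a9 at -0.37 (SE 0.16, limma adjusted p = 0.226). With citrate the 12 differences lay between -0.06 and 0.10. The median over the 12 was 0.03 with citrate and 0.00 with PVP.

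Liver enzymes that need zinc were taken as the users of the transported metal. Of 13 tested, 0 passed with either coating in limma. Unadjusted p-values under 0.05 counted 2 higher and 0 lower with citrate, and 0 higher and 5 lower with PVP. Over all genes 2.74% were higher with citrate and 12.2% lower with PVP. The list's median was -0.14 with citrate and -0.32 with PVP. Adh1 was at the top of the scale on 11 of 12 arrays, and Bhmt and Car3 each had 1 value, within 0.01, on 4 of 12. Car3, a carbonic anhydrase, stood at 18.9 ± 0.477 in controls and 17.7 ± 0.968 with PVP (difference -1.16, SE 0.32, limma adjusted p = 0.133). Its livers ran from 18.6 to 19.6 in controls and from 16.6 to 18.8 with PVP. Alpl, an alkaline phosphatase of the kind supplied through the Golgi transporters, had -0.37 with PVP (SE 0.13, limma adjusted p = 0.189). Bhmt, which remethylates homocysteine, had 0.54 with citrate (limma adjusted p = 0.716) and -0.58 with PVP (limma adjusted p = 0.204).

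Sex was compared over the same 12 livers, 6 of each sex. Of the 9 tested members 0 passed at a limma adjusted p under 0.05, where 2.17% of genes did, and 2 differed at an unadjusted p under 0.05, where 15.3% of genes did. Slc39a14 was 10.88 ± 0.42 in females and 10.24 ± 0.39 in males (mean ± SD, n = 6 each), a difference of 0.64 (SE 0.21, interval 0.18 to 1.09, limma adjusted p = 0.16). Slc30a5 was 9.01 ± 0.18 in females and 9.39 ± 0.21 in males, a difference of -0.38 (SE 0.12, interval -0.65 to -0.11, limma adjusted p = 0.164). Without PVP replicate 1 Slc39a14 passed (0.81, limma adjusted p = 0.0273), and without PVP replicate 2 Slc30a5 passed (-0.48, limma adjusted p = 0.0322). The other 7 members had differences of -0.36 to 0.22. Neutrophil markers were above 0 in females in 4 of 4 (median 1.16) and Kupffer cell markers in 6 of 6 (median 0.63). The median over all genes was -0.02. At an unadjusted p under 0.05, 2 and 3 of them were higher, where 15.3% of all genes differed in either direction. Stellate cell markers were above 0 in 4 of 4, sinusoidal endothelial markers in 4 of 5, cholangiocyte markers in 1 of 4 and lymphocyte markers in 1 of 3. In each of these lists 0 passed in limma. The 1 erythroid marker measured had a female minus male difference of -2.945 (limma adjusted p = 0.000212). Their part in the sex differences of the transporters was not tested.

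**Figure D4:**
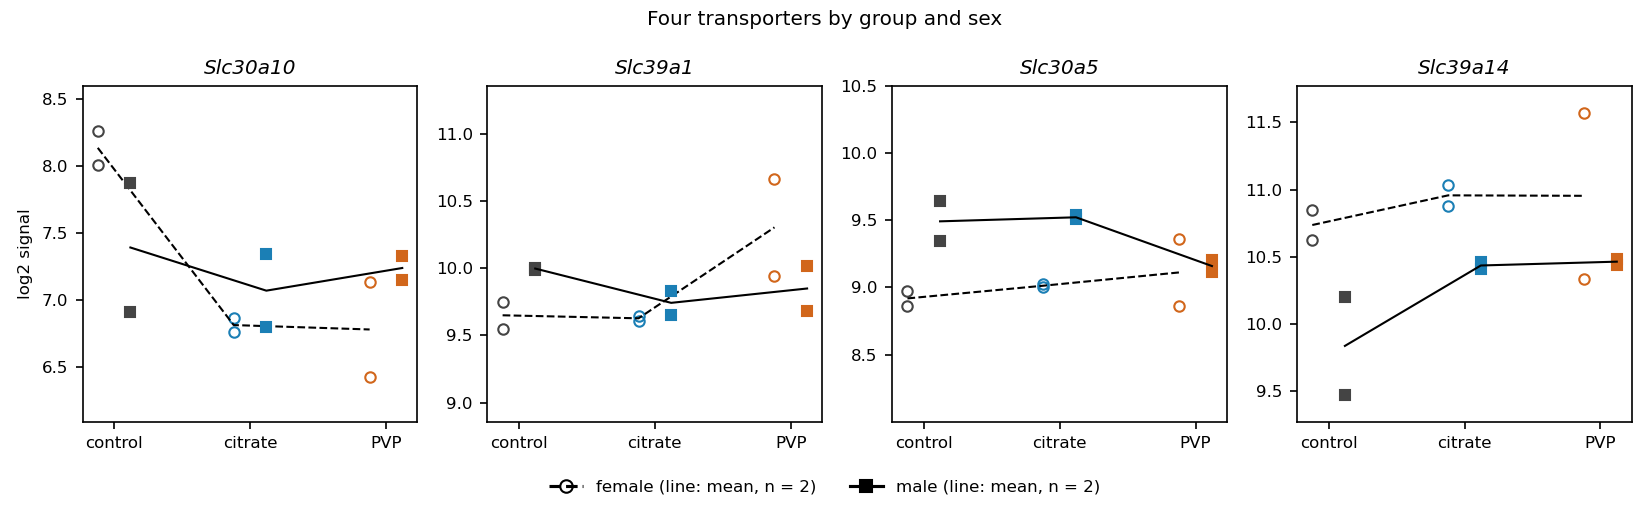
Log2 signal (vertical axis, 2.5 log2 units in every panel) of Slc30a10, Slc39a1, Slc30a5 and Slc39a14 by group (horizontal axis), with females as open circles and dashed lines and males as filled squares and solid lines, where lines join means of 2 mice. For Slc30a10 the treated females lie at 6.43 to 7.13, and the control females at 8.004 and 8.26.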

How the data were processed

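The deposited table held log2 signal, 1 column per mouse and not centred per gene. RMA and Transcriptome Analysis Console 4.0.1.36 are named in the submitters' processing notes without role or order, and the genome build was not given in the sources used here. The log2 values deposited by the authors ran from 1.73 to a ceiling of 19.93, with array medians of 4.13 to 4.40. The number of mice, 4 per group, limits the precision. Nothing was adjusted before the tests.

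Of 72688 probe sets, 30604 named 1 symbol in GEO's platform table, 2146 several and 39938 none; 827 symbols were updated through RefSeq (GRCm38.p6). The probe set of highest mean stood for a gene. A gene entered the tests where its mean passed 3.93, the 40th percentile over probe sets. The model, in limma 3.58.1 (R 4.3.3), had group and sex as terms and moderated the spread along the signal. A fit of 6 group-by-sex means gave the difference between sexes. Tests are two-sided, adjusted by Benjamini and Hochberg over 20020 genes, and called at 0.05. The fits were tested on simulated data. P-values measure the spread between mice.

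All 10 members are named, with at most 4 genes of each related list by smallest p, Mt1, Mt2 and Mtf1, and the 5 genes most like each of the 2 members of widest range, passing over predicted genes. The members and lists were chosen with earlier results of these data known. The promoters come from RefSeq. The windows of Slc30a10 and Slc39a7 lie outside the annotated gene, and only that of Slc30a10 is shown unbroken. The window of Slc39a7 held no match to either motif. Alternatives covered scaling, filter, probe sets, spread, sex, groups fitted, array quality, replicate block and single arrays.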

Additional observations from a re-analysis of the deposited data

Results flagged for a closer look

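Of 30 combinations of member and group, 2 held a liver that stood apart from the other 3, where chance gives about 1 in 20. Slc39a8 had a log2 signal of 8.264 in control replicate 4, against 7.52 to 7.62 in the other controls. Slc39a14 had 11.573 in PVP replicate 2, against 10.33 to 10.49 in the other PVP livers.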

How the results depend on the processing

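No member passed an adjusted p of 0.05 under any alternative for the coatings, in limma. For sex the count of members past it was 0 to 1 with 1 array left out (1 without PVP replicate 1, Slc39a14, and 1 without PVP replicate 2, Slc30a5). Over all refits, 69 member differences turned sign, 1009 kept sign and call, and 2 came to pass. Counts over all genes moved more: with PVP 8 became 0 to 85, with citrate 1 became 0 to 6, and for sex 435 became 58 to 931. The cause was not tested. The number of mice limits precision.

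With array quality (the exon over intron area) added to the fit, Slc39a4 was 0.117 (citrate against control), 0.126 (PVP against control) and 0.00877 (PVP against citrate), and Slc30a5 was 0.0444 (PVP against control). Without the 2 arrays of lowest area, PVP against control was 0.0327 for Slc30a5 and 0.00179 for Slc39a7, PVP against citrate was 0.00485 for Slc30a7, 0.0351 for Slc39a4 and 0.066 for Slc39a7, and female against male was 0.00333 for Slc30a1 and 0.0114 for Slc39a1. After quantile normalization Slc30a5 was 0.0861 (PVP against control), 0.0081 (PVP against citrate) and -0.0294 (citrate effect in females minus males), Slc30a7 was 0.0549 (PVP effect in females minus males), and female against male was 0.0376 for Slc30a1 and 0.0534 for Slc39a1. With arrays centred on their medians these last were 0.0139 and 0.0164.

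With 1 array left out, citrate against control ran from -0.122 to 0.0133 for Slc30a1, -0.0898 to 0.0170 for Slc30a7, -0.302 to 0.160 for Slc39a4, -0.123 to 0.0239 for Slc39a7 and -0.170 to 0.0820 for Slc39a8. PVP against control ran from -0.226 to 0.0228 for Slc30a5. PVP against citrate ran from -0.0532 to 0.288 for Slc30a10 and -0.192 to 0.272 for Slc39a14. Female against male ran from -0.0508 to 0.0346 for Slc30a1, -0.203 to 0.156 for Slc30a10 and -0.151 to 0.0660 for Slc39a1. The citrate effect in females minus males ran from -0.0106 to 0.299 for Slc30a1, -0.0835 to 0.213 for Slc30a5, -0.0428 to 0.349 for Slc39a7 and -0.494 to 0.179 for Slc39a8. The PVP effect in females minus males ran from -0.0265 to 0.279 for Slc30a1, -0.258 to 0.181 for Slc30a7, -1.03 to 0.210 for Slc39a14, -0.261 to 0.424 for Slc39a7 and -0.603 to 0.0696 for Slc39a8.

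Replicate numbers were not taken as pairs. Deviations from the group mean, with sex not removed, were correlated between mice of different groups. Same-numbered mice gave -0.516 to 0.526 (median 0.153, 12 pairs, 8 of the same sex). Differently numbered mice gave -0.701 to 0.636 (median -0.101, 36 pairs, 16 of the same sex). Same-numbered pairs were more often of the same sex, so these medians cannot tell pairing from sex. Of 12 arrays, 1 was closest to an array of its own number. With the replicate block, 0 members passed, female against male was 0.039 for Slc30a1 and -0.26 for Slc30a10, and over all genes 0 passed with citrate, 0 with PVP and 58 for sex.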
